A study of Mus musculus with 46 samples.

Results

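The genes described here are 8 Sox transcription factors, *Sox2*, *Sox15*, *Sox4*, *Sox5*, *Sox6*, *Sox9*, *Sox11* and *Sox12*, taken by symbol from the 37108 genes of the RNA-seq gene table and, summed over their transcripts, from the 35976 symbols of the iPSC transcript table. All 8 were found in both tables. Mouse embryonic fibroblasts (MEF), prepared from E13.5 embryos that carry the OG2 reporter (GFP under *Oct4* control), received retroviral *Oct4* together with either native *Nanog* (Nanog+Oct4) or *Nanog* fused at its N-terminus to the BRG1-binding piece of SS18 (NanogN70+Oct4), the construct the study calls its engineered *Nanog*. BRG1 is the motor subunit of the BAF chromatin remodelling complex. Cells of both combinations grew in iCD3 medium from D0, the end of infection, and were changed at about D7 to the 2i and LIF medium of naive stem cells. Samples were taken on 8 days, at D0, D1 and D3, then at D5, D7 and D8, and last at D10 and D12. Each combination had 2 samples a day, except that NanogN70+Oct4 at D8 had 1, which gave 31 samples. The series of 46 was completed by derived iPSC (12 samples, 6 per combination), 2 MEF samples and 1 mouse embryonic stem cell (mES) sample. The mES sample carried the same reporter. The iPSC titles of both combinations hold a tag, iPSC1 or iPSC2, and do not say what it stands for. *Oct4* and *Nanog* were in every transduced culture, no *Sox* gene was in the vectors, and whole cultures, which mix converted and unconverted cells, were sequenced. Fewer cells of a type and less RNA per cell therefore cannot be told apart. The labels do not say that the replicates of a day came from separate infections, so the p-values measure the spread between these samples, which may be technical.

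SOX proteins bind DNA through an HMG box that bends the minor groove, and they select genes together with partner factors. SOX2, of the SOXB1 group, pairs with OCT4 on composite elements and is required for the pluripotent epiblast, and SOX15 is a SOXG factor of stem cells and trophoblast that can bind DNA beside OCT4. SOX4, SOX11 and SOX12 form the SOXC group, activators that are abundant in embryonic mesenchyme and in newly formed neurons. SOX9, of the SOXE group, and the SOXD factors SOX5 and SOX6, which lack an activation domain of their own, act together in chondrocytes and in several progenitor cells.

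Levels are given in FPKM (fragments scaled to the length of the gene model and to the mapped total), a scale that divides by length and so allows levels of different genes to be set side by side. Differences are in log2(FPKM + 1), which understates changes of low genes, and a member "passed the test" where limma gave a Benjamini-Hochberg adjusted p under 0.05, taken over all genes tested, and a difference of at least 1 (2-fold). Relative depth, read from the size of the smallest steps in the table, was 0.893 to 1.08 for Nanog+Oct4 up to D7 and 0.83 to 1.13 for all NanogN70+Oct4 samples, but 1.9 to 3.26 for Nanog+Oct4 from D8 on, so from D8 the depth and the combination cannot be told apart. Fibroblast markers (7 of 7 detected) summed to 5714 and 6682 FPKM in MEF and to 11.5 FPKM in mES. The 8 pluripotency markers summed to 4514 FPKM in mES and to at most 0.507 FPKM in MEF, with 6 of 8 listed at 0 in both MEF samples. The MEF samples differed in other markers: the chondrocyte markers summed to 99.9 FPKM in replicate 1 and 42.5 FPKM in replicate 2, and the muscle markers to 15.1 and 81.2 FPKM.

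On the mouse mm10 genome (GRCm38, GENCODE M21 annotation), *Sox2* lies at chr3:34650405-34652461 on the plus strand inside the long noncoding gene *Sox2ot*, which reads in the same direction, so reads of the pair may not be fully separable. *Sox2ot* reached at most 2.90 FPKM in the 34 samples of the gene table. *Sox15* lies at chr11:69655314-69656727 on the plus strand and overlaps the end of the oppositely directed *Mpdu1*, which was expressed in all samples at 14.9 to 101 FPKM, and *Sox4* lies at chr13:28948919-28953713 on the minus strand opposite a noncoding gene. *Sox12* (chr2:152393611-152398063, minus), *Sox11* (chr12:27334264-27342574, minus) and *Sox9* (chr11:112782224-112787760, plus) overlap no other annotated gene. *Sox5* (chr6:143828425-144781977, minus) and *Sox6* (chr7:115470872-116038796, minus) are long genes of many exons that hold 7 and 2 other noncoding genes. Whether the authors' counting used strand is not given in the sources used here, so values of the overlapping members carry that uncertainty.

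The 250 bases before the RefSeq start site (GRCm38.p6) are shown for the members on which the results turn, *Sox2* and *Sox15*, which moved together, the SOXC genes *Sox4* and *Sox11*, and *Sox12*, whose window alone among the members held an octamer. RefSeq promoter windows were at hand for 7 of the 8 members. Capitals mark the SOX core letters ACAAAG or ACAATG, the OCT4-type octamer ATGCAAAT and the CCAAT box, searched on both strands with no overlap between the matches. The windows, each 5′ to 3′ on the gene's strand, are chr3:34649745-34649994 (*Sox2*), chr11:69654787-69655036 (*Sox15*), chr13:28953700-28953949 (*Sox4*), chr12:27342719-27342968 (*Sox11*) and chr2:152398047-152398296 (*Sox12*).
Sox2: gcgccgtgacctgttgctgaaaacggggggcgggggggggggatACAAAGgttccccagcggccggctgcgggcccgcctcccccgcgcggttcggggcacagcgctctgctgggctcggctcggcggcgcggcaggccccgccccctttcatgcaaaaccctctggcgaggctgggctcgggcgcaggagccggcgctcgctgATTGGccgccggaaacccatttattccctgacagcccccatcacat
Sox15: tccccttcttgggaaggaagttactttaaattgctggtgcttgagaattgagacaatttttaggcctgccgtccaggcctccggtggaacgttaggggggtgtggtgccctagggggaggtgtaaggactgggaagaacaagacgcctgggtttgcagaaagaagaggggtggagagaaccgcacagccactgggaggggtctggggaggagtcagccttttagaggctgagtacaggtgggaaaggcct
Sox4: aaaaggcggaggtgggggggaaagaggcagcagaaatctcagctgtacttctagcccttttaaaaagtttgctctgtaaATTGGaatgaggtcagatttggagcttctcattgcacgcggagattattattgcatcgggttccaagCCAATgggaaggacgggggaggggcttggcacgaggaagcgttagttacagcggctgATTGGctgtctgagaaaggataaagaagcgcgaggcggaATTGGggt
Sox11: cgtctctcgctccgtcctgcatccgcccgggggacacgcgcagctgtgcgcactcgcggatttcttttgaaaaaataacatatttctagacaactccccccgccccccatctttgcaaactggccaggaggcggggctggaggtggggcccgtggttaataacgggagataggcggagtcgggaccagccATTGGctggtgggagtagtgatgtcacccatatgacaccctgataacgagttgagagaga
Sox12: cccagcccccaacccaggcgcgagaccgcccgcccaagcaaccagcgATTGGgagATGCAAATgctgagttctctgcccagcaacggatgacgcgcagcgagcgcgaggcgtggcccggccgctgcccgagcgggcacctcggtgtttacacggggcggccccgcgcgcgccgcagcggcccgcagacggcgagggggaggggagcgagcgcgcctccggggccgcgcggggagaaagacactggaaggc
*Sox2* held ACAAAG from -206 to -201 relative to its start, letters found in 16.5% of 32851 windows of the same length, and an inverted CCAAT box. *Sox12* held ATGCAAAT from -195 to -188, found in 1.60% of windows, beside an inverted CCAAT box. *Sox4* held 4 CCAAT boxes and *Sox11* held 1, a motif of 33.9% of windows, while *Sox15* held none of the motifs. These letters are a description of the windows and say nothing of binding.

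*Sox2* stayed low with native *Nanog* until the end of the first week and rose days earlier and further with NanogN70. In MEF it stood at 1.41 and 0.337 FPKM, and at D0 at 0.200 and 0.224 FPKM with NanogN70+Oct4 against 0.383 and 0.0513 FPKM with Nanog+Oct4. With NanogN70+Oct4 the D1 samples read 1.25 and 0.186 FPKM, those of D3 1.56 and 0.449 FPKM and those of D5 1.81 and 1.45 FPKM. *Sox2* then stood at 15.3 and 12.5 FPKM at D7, 73.5 FPKM at D8, 200.2 and 177 FPKM at D10, and 266 and 212 FPKM at D12. Both samples of D7 thus lay far above all earlier ones, and the D12 samples lay on either side of the mES sample at 248 FPKM. With Nanog+Oct4 *Sox2* remained at or under 0.846 FPKM through D7, then read 0.0517 and 1.94 FPKM at D8, 7.91 and 28.3 at D10, and 39.8 and 30.0 at D12. The D8 and D10 replicates of this combination were far apart, and the highest Nanog+Oct4 sample of the whole course stayed below the NanogN70+Oct4 sample of D8. The plot of levels by day shows this lag beside the other members.

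**Figure D1:**
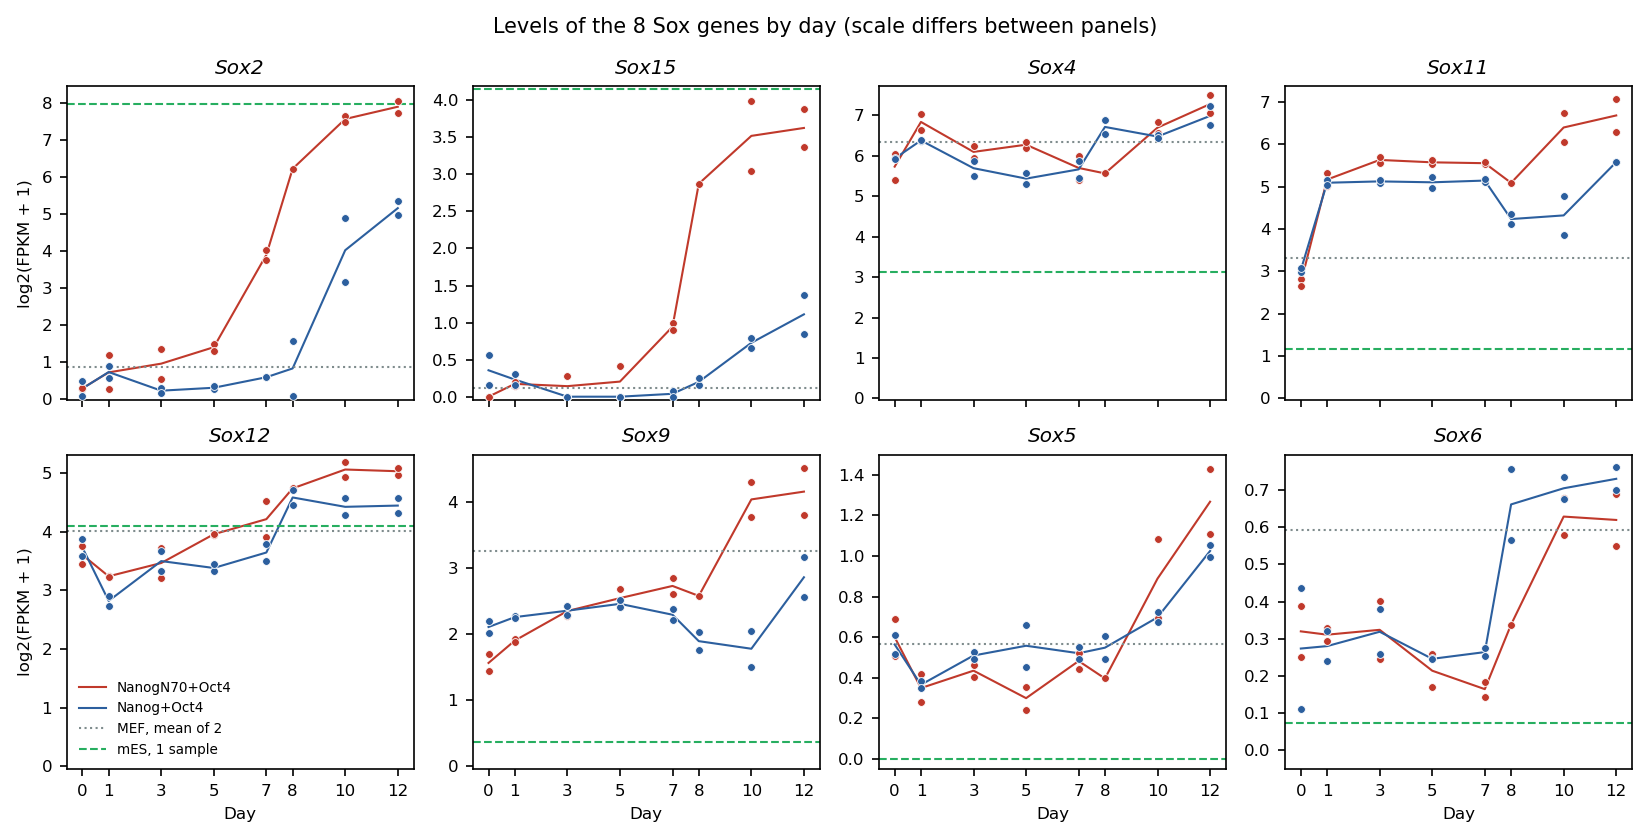
Level of each of the 8 Sox genes as log2(FPKM + 1) against the day of reprogramming; each point is 1 sample, lines join the means of NanogN70+Oct4 (red) and Nanog+Oct4 (blue), and horizontal lines give MEF (dotted, mean of 2 samples) and mES (dashed, 1 sample). Sox2 and Sox15 climbed toward mES with NanogN70+Oct4, while Sox4, Sox11 and Sox9 ended above MEF there and far above mES.

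Between the combinations, *Sox2* did not pass the test on the first 4 days, D0 to D5, where the difference was 0.01 ± 0.45 (SE), -0.01 ± 0.45, 0.73 ± 0.45 and 1.10 ± 0.45, the last with adjusted p = 0.107 in limma. At D7, *Sox2* was 3.31 ± 0.45 higher with NanogN70+Oct4 (adjusted p = 1.64e-05, limma), and it was the only one of the 7 tested members to pass there, against 10.4% of all genes tested. Averaged over D1 to D7, days on which the libraries had like depth, *Sox2* was 1.28 ± 0.23 higher (adjusted p = 0.000154, limma), again the only member of 7 that passed, against 3.39% of all genes tested. The difference reached 5.40 ± 0.55 at D8, where NanogN70+Oct4 had 1 sample, and was 3.55 ± 0.45 at D10 and 2.74 ± 0.45 at D12, all past the test. At D12 the mean level was 239 ± 37.9 FPKM (SD, n = 2) with NanogN70+Oct4 and 34.9 ± 6.91 FPKM (SD, n = 2) with Nanog+Oct4, a ratio of 6.84. Against D0 of the same combination, *Sox2* passed from D7 on with NanogN70+Oct4 and from D10 on with Nanog+Oct4. All D0 samples were under 1 FPKM, so *Sox2* entered the test only through later samples where it was higher. Its passing the filter on low values and its rise over D0 are therefore not separate facts. With NanogN70+Oct4 it passed already at D5 (1.11 ± 0.45) with a pseudocount of 0.1 (2.46), on the TPM scale (1.72) and in the fit to the compared groups alone (adjusted p = 0.00582, limma). The gain from D0 to D12 was 2.74 ± 0.64 larger with NanogN70+Oct4 (adjusted p = 0.00227, limma). With a pseudocount of 0.1 this last difference was 2.57 and no longer passed (adjusted p = 0.125, limma). Its adjusted p ranged from 0.00209 to 0.125 over 14 alternatives.

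*Sox15* rose in the same cultures as *Sox2*, at a lower level. It stood near 0 in MEF (0.115 and 0.0562 FPKM) and stayed at or under 0.475 FPKM in every sample of D0 to D5. NanogN70+Oct4 cells held 0.986 and 0.865 FPKM at D7, 6.33 at D8, 14.9 and 7.26 at D10, and 13.8 and 9.31 at D12. Nanog+Oct4 cells held 0.0555 and 0 FPKM at D7, 0.112 and 0.187 at D8, 0.733 and 0.581 at D10, and 0.802 and 1.59 at D12. From D7 on the samples of the combinations did not overlap, and the D12 mean with Nanog+Oct4, 1.196 ± 0.558 FPKM (SD, n = 2), was 7.11% of the 16.8 FPKM of mES, against 68.7% with NanogN70+Oct4.

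At D7 the *Sox15* difference was 0.91 ± 0.24, with adjusted p = 0.00809 in limma but under the 2-fold limit. It passed with a pseudocount of 0.1 (3.04, adjusted p = 0.00118, limma) and on the TPM scale (1.62, adjusted p = 0.00101, limma), and over 10 alternatives its adjusted p ran from 0.00101 to 0.0504. *Sox15* passed at D8 (2.67 ± 0.30, with 1 NanogN70+Oct4 sample whose spread was assumed to be that of the other groups), D10 (2.79 ± 0.24) and D12 (2.52 ± 0.24), higher with NanogN70+Oct4 each time. Against D0 with NanogN70+Oct4 it passed from D8 on, and at D7 (0.94 ± 0.24) only with a pseudocount of 0.1 (3.36), on the TPM scale (1.72) or without the fold limit. The gain from D0 to D12 was 3.63 ± 0.24 with NanogN70+Oct4 and 0.75 ± 0.24 with Nanog+Oct4, and these gains differed by 2.87 ± 0.34 (adjusted p = 2.91e-06, limma). *Sox15* entered the test only through the groups where it was high, so that its passing the filter on low values and its rise are not separate facts.

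*Sox11*, a SOXC factor of neuronal progenitors and mesenchyme, was the only one of the 7 tested members to pass against D0 at D1 in both combinations. From 8.12 and 9.96 FPKM in MEF and 5.25 to 7.41 FPKM at D0, it stood at 38.9 and 31.3 FPKM with NanogN70+Oct4 and at 34.4 and 31.8 FPKM with Nanog+Oct4 at D1. The rise over D0 was 2.44 ± 0.25 with NanogN70+Oct4 (adjusted p = 9.56e-07, limma) and 2.06 ± 0.25 with Nanog+Oct4 (adjusted p = 6.53e-06, limma), and *Sox11* passed against D0 on all 7 later days in each. At D1, 2 of 7 members had passed with NanogN70+Oct4, against 8.85% of all genes tested, and 1 of 7 with Nanog+Oct4, against 7.64%. Up to D7 *Sox11* held a plateau of 45.1 to 51.2 FPKM with NanogN70+Oct4 from D3 and of 30.4 to 36.5 FPKM with Nanog+Oct4. In the fit restricted to the D0 and D1 samples, the Nanog+Oct4 rise at D1 had adjusted p = 0.0672 in limma, and without Nanog D10 replicate 2 the Nanog+Oct4 rise at D10 was 0.83, under the fold limit. The D10 rise with Nanog+Oct4 had adjusted p = 0.0911 (limma) in the fit to the compared groups alone, and the D8 rise was 0.95 after quantile normalization.

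From D3 on, the *Sox11* samples of the combinations did not overlap on any day. With Nanog+Oct4, *Sox11* read 19.4 and 16.4 FPKM at D8, 13.5 and 26.4 at D10, and 46.6 and 47.0 at D12. With NanogN70+Oct4 it read 33.0 FPKM at D8, 65.7 and 105 at D10, and 76.7 and 134 at D12. *Sox11* passed between the combinations at D10 (2.08 ± 0.25) and D12 (1.10 ± 0.25, adjusted p = 0.00129, limma). The D12 call rested on 1 library: without NanogN70 D12 replicate 2, the sample at 134 FPKM, the difference was 0.70 and under the fold limit. The gains from D0 to D12, 3.95 ± 0.25 with NanogN70+Oct4 and 2.55 ± 0.25 with Nanog+Oct4, differed by 1.40 ± 0.36 (adjusted p = 0.00472, limma).

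*Sox4*, the most abundant somatic member, was high in MEF at 86.9 and 73.5 FPKM and never became low during the course. At D1 it stood at 131 and 98.3 FPKM with NanogN70+Oct4, 1.11 ± 0.25 above D0 (adjusted p = 0.00256, limma), and at 81.4 and 83.3 FPKM with Nanog+Oct4, a difference from D0 of 0.45 ± 0.25 that did not pass. Without NanogN70 D0 replicate 2 or without NanogN70 D1 replicate 1, the first of these was 0.78 or 0.90 and did not pass either. At D8 *Sox4* was 46.4 FPKM in the NanogN70+Oct4 sample and 92.0 and 118 FPKM in the Nanog+Oct4 samples, lower with NanogN70+Oct4 by a difference of -1.15 ± 0.30 (adjusted p = 0.00493, limma), the only call in that direction among the members, with 1 NanogN70+Oct4 sample. On D1, D3, D5 and D10 both NanogN70+Oct4 samples lay above both Nanog+Oct4 samples instead, with a difference of 0.84 ± 0.25 at D5 (adjusted p = 0.0237, limma) and of 0.43 ± 0.12 in the mean of D1 to D7 (adjusted p = 0.00895, limma), both under the fold limit. The D8 difference was -0.97 without Nanog D8 replicate 2, and in the fit to the compared groups alone its adjusted p was 0.0552 in limma. By D12 the level was 157 ± 34.9 FPKM (SD, n = 2) with NanogN70+Oct4 and 128 ± 29.2 FPKM (SD, n = 2) with Nanog+Oct4, with overlapping samples and a difference of 0.29 ± 0.25. Both had risen over D0, by 1.55 ± 0.25 and 1.05 ± 0.25. Without Nanog D12 replicate 1 the latter was 0.82 and did not pass, nor did it in the fit to the compared groups alone (adjusted p = 0.0601, limma).

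*Sox12*, the weakest activator of the SOXC group, had like levels in MEF and mES and lower and higher ones in between. It read 17.6 and 13.2 FPKM in MEF and 16.1 FPKM in mES, a difference of 0.08 ± 0.26. At D1 it was 8.53 and 8.39 FPKM with NanogN70+Oct4 and 5.64 and 6.53 FPKM with Nanog+Oct4, all below the 9.97 to 13.6 FPKM of D0. The D1 minus D0 differences, -0.37 ± 0.21 and -0.91 ± 0.21, did not pass. The second had adjusted p = 0.00319 in limma and missed only the fold limit. It passed with a pseudocount of 0.1 (-1.01), and it ran from -1.05 to -0.78 when 1 replicate was left out. It then stood at 30.4 and 33.2 FPKM with NanogN70+Oct4 and 23.0 and 18.9 FPKM with Nanog+Oct4 at D12. Against D0, *Sox12* passed at D8, D10 and D12 with NanogN70+Oct4 (1.43 ± 0.21 at D12). The D8 call was lost without NanogN70 D0 replicate 2, at 0.98, after quantile normalization, at 0.83, and in the fit to the compared groups alone. With Nanog+Oct4 it passed on no day. The differences there at D8 (0.85), D10 (0.69) and D12 (0.72 ± 0.21) had adjusted p = 0.00246, 0.0118 and 0.00993 in limma, under the fold limit. On the TPM scale the one at D8 passed (1.08). The difference between the gains to D12, 0.71 ± 0.29, did not pass (adjusted p = 0.0633, limma). From D5 on, all NanogN70+Oct4 samples lay above all Nanog+Oct4 samples of the same day. The differences at D7 (0.57), D10 (0.64) and D12 (0.59) had adjusted p = 0.0458, 0.0134 and 0.0237 in limma, under the fold limit.

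*Sox9*, the master regulator of chondrocytes that also serves in neural crest and glial progenitors, was lower at D0 than in MEF and rose again late, with NanogN70. It stood at 11.3 and 6.36 FPKM in MEF, and at 1.69 and 2.22 FPKM (NanogN70+Oct4) and 3.03 and 3.57 FPKM (Nanog+Oct4) at D0. *Sox9* was the only member of 7 to pass between MEF and D0, by -1.69 ± 0.26 with NanogN70+Oct4, against 11.4% of all genes tested, and by -1.15 ± 0.26 with Nanog+Oct4, against 6.75%. Without MEF replicate 1, the sample with more chondrocyte marker RNA, the latter was -0.78 and did not pass, and the part of those cells in it was not tested. With NanogN70+Oct4, *Sox9* read 6.17 and 5.09 FPKM at D7, 4.95 at D8, 12.7 and 18.6 at D10, and 12.9 and 21.7 at D12. With Nanog+Oct4 it read 4.17 and 3.61 FPKM at D7, 3.08 and 2.36 at D8, 1.83 and 3.12 at D10, and 7.92 and 4.87 at D12, and these ranges lay below those of NanogN70+Oct4 on each of the 4 days.

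Between the combinations *Sox9* was higher with NanogN70+Oct4 by 2.26 ± 0.24 at D10 (adjusted p = 1.76e-07, limma) and by 1.30 ± 0.24 at D12 (adjusted p = 0.000147, limma). The D12 difference was 0.95 without NanogN70 D12 replicate 2 and 1.00 without Nanog D12 replicate 2, each just under the fold limit. From D0 to D12 *Sox9* rose by 2.59 ± 0.24 with NanogN70+Oct4, while Nanog+Oct4 gave 0.75 ± 0.24, and the gains differed by 1.84 ± 0.34 (adjusted p = 0.000278, limma). Markers of other cells also differed between the combinations, without following *Sox9* throughout. The 4 neural crest and glia markers summed to 0.541 to 1.57 FPKM at D0 and to at most 13.7 FPKM at D12 with NanogN70+Oct4. At D12 with Nanog+Oct4 they summed to 3.01 to 4.32 FPKM. In mES they summed to 14.9 FPKM, where *Sox9* stood at 0.282 FPKM. The 5 chondrocyte markers summed to 8.02 to 10.2 FPKM at D0, 10.7 to 11.8 FPKM at D10 and 6.64 to 7.09 FPKM at D12 with NanogN70+Oct4. Their D12 sum was thus below that of D0, while *Sox9* had risen. With Nanog+Oct4 they summed to 0.593 to 1.72 FPKM at D10 and 0.784 to 0.904 FPKM at D12. The part of such cells in the *Sox9* results was not tested. Quantile normalization took the earlier calls of *Sox9* against D0 in NanogN70+Oct4, at D7 and D8, below the fold limit. The D8 call, with 1 NanogN70+Oct4 sample at that day, was also lost without NanogN70 D0 replicate 1, at 0.89. It was lost as well in the fit to the compared groups alone.

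The SOXD genes stayed near the floor of the table. *Sox5* was listed at 0 in mES and elsewhere ranged from 0.167 FPKM in MEF replicate 2 to 1.69 FPKM in a NanogN70+Oct4 sample of D12. It passed the filter on low values only through samples of D10 and D12 and passed no test between combinations or against D0, with a D12 minus D0 difference of 0.67 ± 0.14 in NanogN70+Oct4 and 0.46 ± 0.14 in Nanog+Oct4. *Sox6* never reached 1 FPKM in the gene table, ranged from 0.0531 FPKM in mES to 0.776 FPKM in MEF replicate 1 and was not tested. In the transcript table, *Sox5* had 28 listed transcripts, of which 3 were above 0 in any of the 15 samples, and *Sox6* had 31, of which 8 were, while each of the other 6 members had 1.

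At D8, 3 of 7 tested members passed between the combinations, against 22.3% of all genes tested, at D10 4 of 7, against 27.8%, and at D12 4 of 7, against 23.4%. All of these were higher with NanogN70+Oct4 except *Sox4* at D8. On the 4 days up to D5 none of the 7 passed, where in turn 0.76%, 1.33%, 3.7% and 6.48% of all genes tested did. The median difference of the 7 members was 2.08 at D10 and 1.10 at D12, beside 0.10 and 0.17 over all genes tested. Against D0, the count of members that passed with NanogN70+Oct4 was 1 of 7 at D3 (15% of all genes tested), 1 at D5 (19.6%), 3 at D7 (18.8%), 5 at D8 (24.9%), 5 at D10 (31.4%) and 6 at D12 (34.7%), all upward. With Nanog+Oct4 it was 1 of 7 at D3 (14.7%), D5 (16.1%), D7 (17.7%) and D8 (17.8%), each time *Sox11*, then 2 at D10 (16%) and 3 at D12 (16.2%). *Sox2* and *Sox15* entered the test only through samples after D0 where they were higher. Their calls in these counts are therefore not separate from the filter on low values. The gains from D0 to D12 differed between the combinations for 4 of 7, *Sox2*, *Sox15*, *Sox9* and *Sox11*, against 23.9% of all genes tested. The fibroblast markers moved with these differences: their sum at D12 was 289 and 429 FPKM with NanogN70+Oct4 and 2750 and 3330 FPKM with Nanog+Oct4, and their part in the results for the members was not tested.

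**Figure D2:**
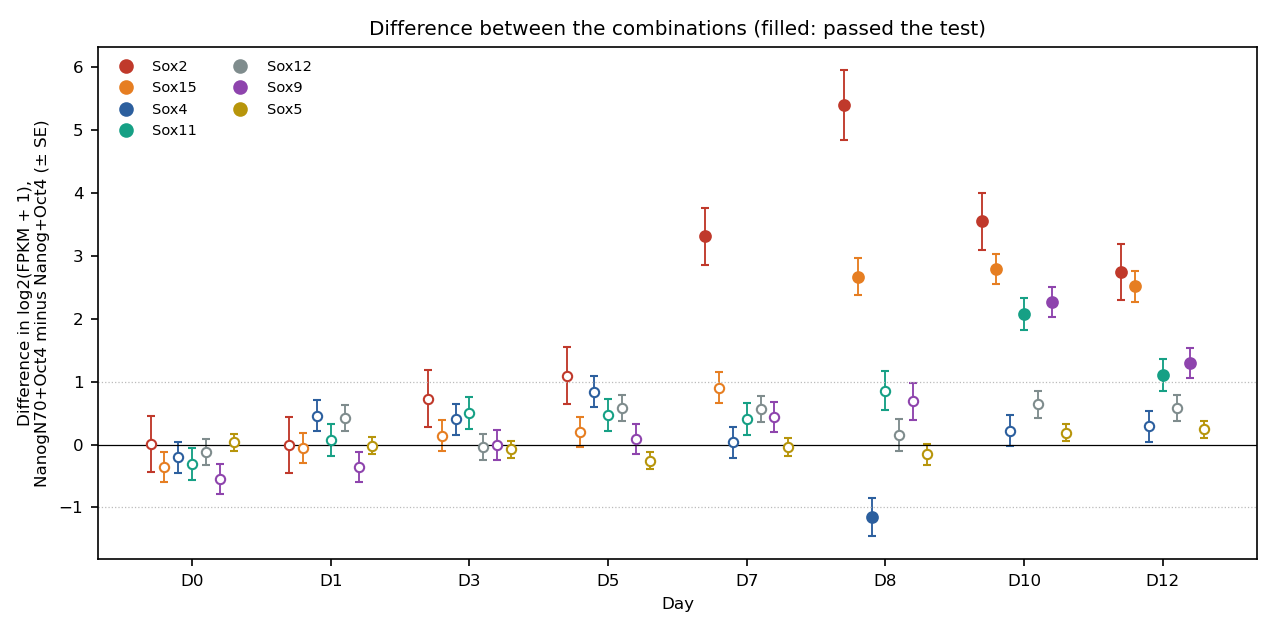
Difference in log2(FPKM + 1) between NanogN70+Oct4 and Nanog+Oct4 at each day for the 7 tested Sox genes, with bars of 1 SE from limma; filled points passed the test and dotted lines mark the 2-fold limit. Sox2 stands apart from D7, Sox15 from D8, and Sox9 and Sox11 at D10 and D12, while Sox4 alone lies below -1, at D8.

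The question of how near the D12 cells came to stem cells has opposite answers for the pluripotent and the somatic members. Between mES and MEF, 5 of 7 members passed, against 36.1% of all genes tested: *Sox2* (7.12 ± 0.56) and *Sox15* (4.04 ± 0.29) were higher in mES, and *Sox4* (-3.20 ± 0.30), *Sox9* (-2.89 ± 0.32) and *Sox11* (-2.16 ± 0.31) were lower. Because mES had 1 sample, its spread was assumed to be that of the other groups. In NanogN70+Oct4 cells of D12, *Sox2* differed from mES by -0.06 ± 0.56 and *Sox15* by -0.53 ± 0.29, neither past the test. *Sox4*, in contrast, was 4.14 ± 0.30 above mES, *Sox9* 3.79 ± 0.32 and *Sox11* 5.52 ± 0.31, all past the test. In levels, *Sox4* was 20.1 times, *Sox9* 61.3 times and *Sox11* 85.7 times that of the mES sample. With *Sox5* these were 4 of 7 members, and 21.6% of all genes tested passed. *Sox5* is listed at 0 in mES and entered the test only through D10 and D12 samples, so its call is set by the filter, and after quantile normalization it was 0.93 and did not pass.

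Nanog+Oct4 cells of D12 differed from mES in both kinds of member. *Sox2* was lower than in mES by -2.81 ± 0.56 (adjusted p = 0.000225, limma) and *Sox15* by -3.04 ± 0.29 (adjusted p = 2e-08, limma), while *Sox4* (3.85 ± 0.30), *Sox9* (2.50 ± 0.32) and *Sox11* (4.42 ± 0.31) were higher. Apart from *Sox5*, whose call again was set by the filter and was lost after quantile normalization (0.85) and without Nanog D12 replicate 2 (0.996), 5 members passed, and 40.6% of all genes tested did. Against MEF, *Sox11* was higher at D12 in both combinations, by 3.36 ± 0.25 and 2.26 ± 0.25, and *Sox4* differed by 0.94 ± 0.24 and 0.65 ± 0.24 without passing. The first of these passed after quantile normalization (1.02), without MEF replicate 1 (1.06) and without NanogN70 D12 replicate 1 (1.17). Both NanogN70+Oct4 samples of D12 thus lay above both MEF samples for *Sox4*, *Sox9*, *Sox11* and *Sox12*, of which *Sox11* and *Sox12* (1.01 ± 0.21) passed. In the same samples the fibroblast markers summed to 289 and 429 FPKM, against 5714 and 6682 FPKM in MEF. Of the 7 members 4 passed against MEF with NanogN70+Oct4, against 31% of all genes tested, and 2 with Nanog+Oct4, against 17.2%, and the *Sox12* call was lost without MEF replicate 2 (0.82) or NanogN70 D12 replicate 2 (0.95). The count with NanogN70+Oct4 ran from 3 to 7 when 1 replicate was left out, and without MEF replicate 1 it was 7, with *Sox5* (1.04) and *Sox9* (1.27) added beside *Sox4*.

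**Figure D3:**
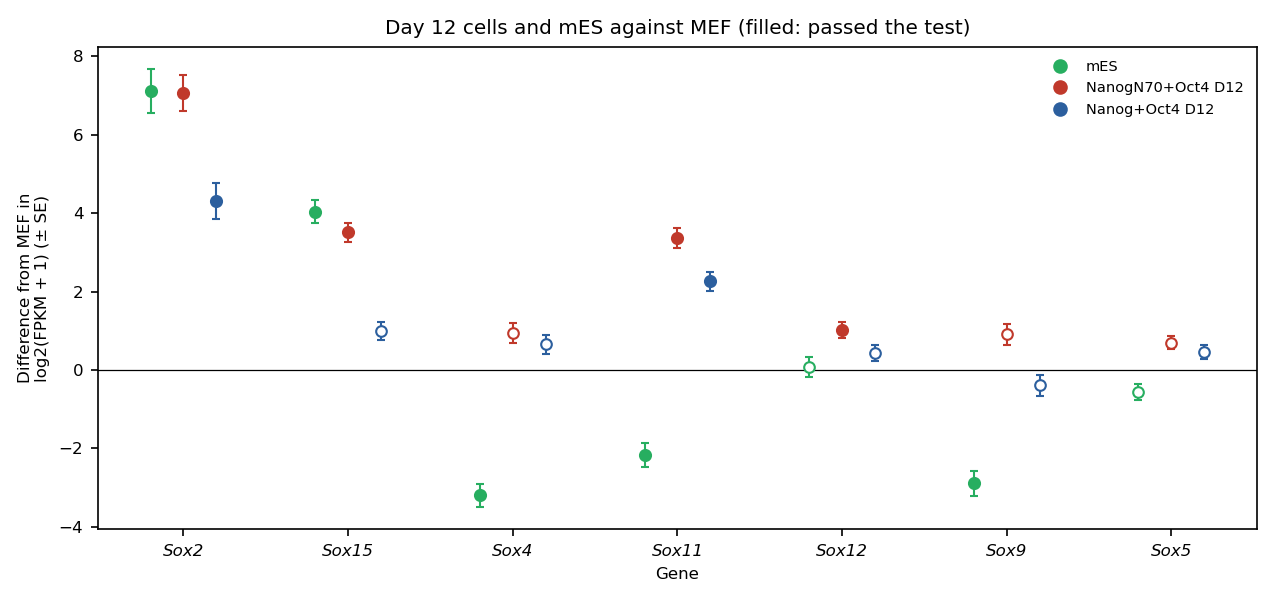
Difference from MEF in log2(FPKM + 1) for mES and for the D12 cells of each combination, with bars of 1 SE from limma; filled points passed the test. For Sox2 and Sox15 the NanogN70+Oct4 cells lie beside mES, whereas for Sox4, Sox11 and Sox9 they lie on the other side of the MEF level from mES.

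The order of the members by level differed between MEF, mES and the D12 cells. In MEF it ran *Sox4*, *Sox12*, *Sox11*, *Sox9*, *Sox2*, *Sox6*, *Sox5* and *Sox15*, with overlapping samples for *Sox11* and *Sox9* and among *Sox2*, *Sox6* and *Sox5*. In the 1 mES sample, which has no spread, it ran *Sox2*, *Sox15*, *Sox12*, *Sox4*, *Sox11*, *Sox9*, *Sox6* and *Sox5*. NanogN70+Oct4 cells of D12 had *Sox2* first, then *Sox4* and *Sox11*, whose samples overlapped, then *Sox12*, then *Sox9* and *Sox15*, which overlapped as well. Nanog+Oct4 cells of D12 kept *Sox4* first, followed by *Sox11*, *Sox2* and *Sox12* without overlap. Between mES and MEF, *Sox12* was the member whose level differed least among those above 1 FPKM.

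In the derived iPSC *Sox4* and *Sox9* were low, *Sox12* was at its MEF level, and no member passed the test between the combinations. The column names of the deposited values, not the sample titles, give the samples tagged iPSC1 a later passage than those tagged iPSC2. The effects of tag and passage cannot be told apart, and the tag entered the fit as a term. Here NanogN70+Oct4 iPSC held *Sox2* at 187, 224 and 295 FPKM (lowest, median, highest of 6) and Nanog+Oct4 iPSC at 205, 238 and 314 FPKM, beside 1.07 and 0.240 FPKM in MEF and 180 FPKM in mES of the same table. *Sox15* stood at 4.14, 9.35 and 11.8 FPKM and at 7.90, 9.03 and 25.3 FPKM, against 13.5 FPKM in mES. *Sox4* stood at 2.34, 3.27 and 7.71 FPKM and at 2.12, 3.70 and 14.6 FPKM, against 66.0 and 56.8 FPKM in MEF. The ranges of the combinations overlapped for each of these genes. Nanog iPSC replicates 1 and 4 share a sample number in the labels and were kept as separate samples, although they may not be independent.

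None of the 5 members tested between the combinations in iPSC passed, and 0% of the 12456 genes tested did by limma. At an unadjusted p under 0.05 there were 201 genes. The differences were -0.14 ± 0.13 for *Sox2*, -0.46 ± 0.28 for *Sox15*, 0.01 ± 0.35 for *Sox4*, -0.07 ± 0.35 for *Sox11* and 0.08 ± 0.12 for *Sox12*. *Sox5*, *Sox6* and *Sox9* were too low to be tested. Against MEF, 4 of 6 members passed, against 40.4% of all genes tested: *Sox2* was 7.21 ± 0.19 and *Sox15* 3.38 ± 0.37 higher in iPSC, and *Sox4* (-3.69 ± 0.46) and *Sox9* (-2.84 ± 0.17) were lower. *Sox9* was listed at or below 0.266 FPKM in every iPSC sample and at 0.272 FPKM in mES. It entered this test only through the MEF samples, so its passing the filter on low values and its fall are not separate facts.

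*Sox11* varied between iPSC samples. It ranged from 1.71 to 8.51 FPKM in NanogN70+Oct4 iPSC and from 0.923 to 7.64 FPKM in Nanog+Oct4 iPSC, so that the highest sample of each overlapped MEF at 6.11 and 7.66 FPKM. Against MEF its difference was -1.05 ± 0.45 (adjusted p = 0.0541, limma), and it passed without NanogN70 iPSC replicate 4 (-1.197), without Nanog iPSC replicate 2 (-1.12) or 6 (-1.21), and on the TPM scale (-1.42). Against the mES sample, none of the 6 members passed and 4.44% of all genes tested did. NanogN70+Oct4 iPSC replicate 9, tagged iPSC1, carried fibroblast markers at 1378 FPKM in sum, against 2.61 to 431 FPKM in the other 11. This sample had the lowest *Sox2* and *Sox15* of all iPSC. Leaving it out changed no call on the members between the combinations.

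**Figure D4:**
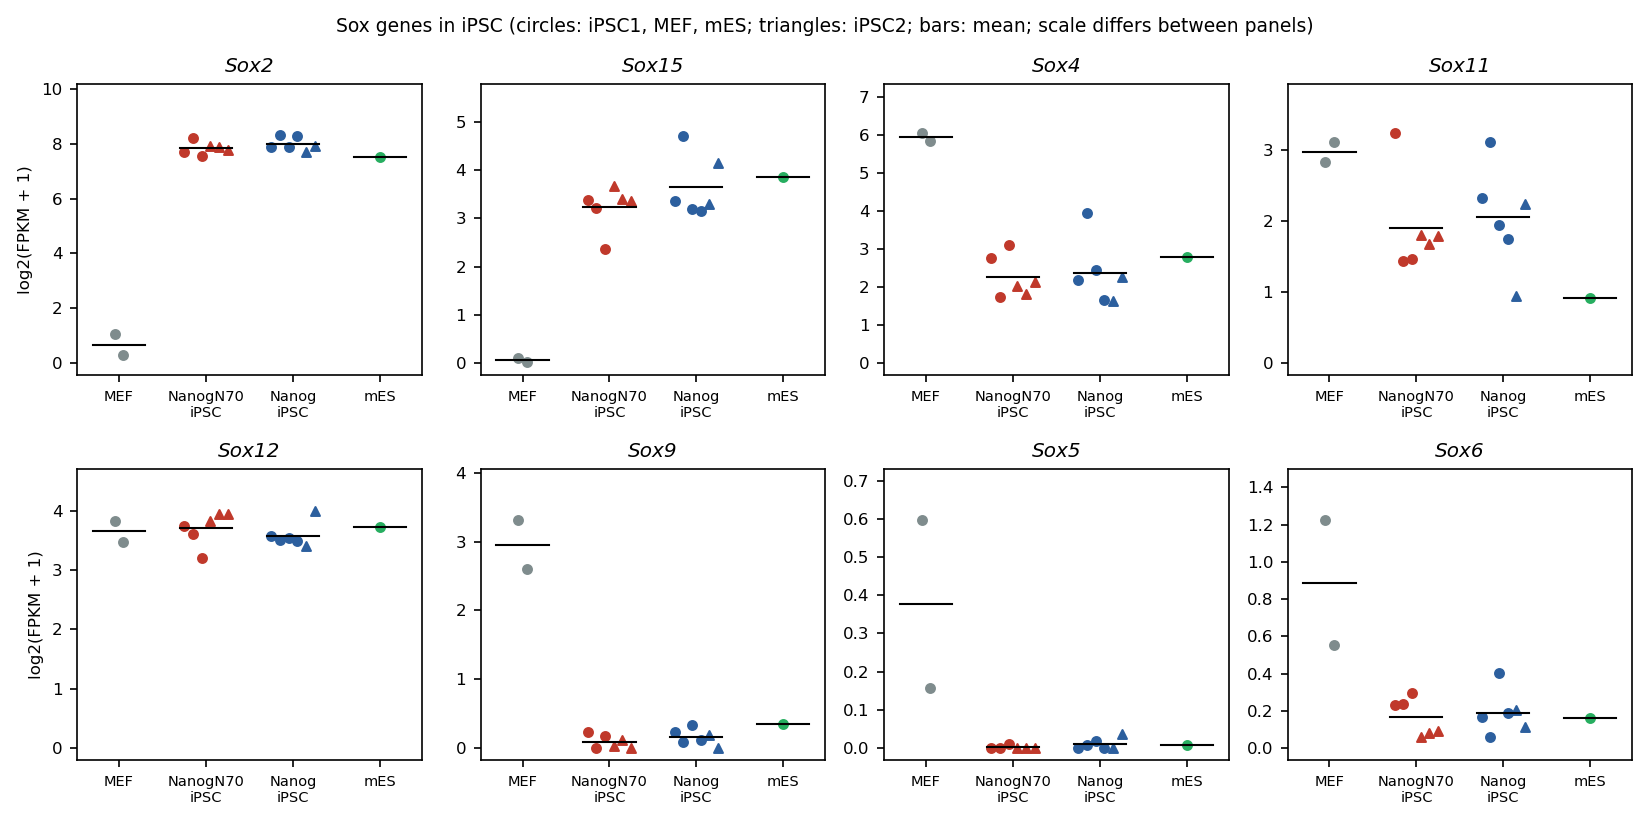
Level of each Sox gene as log2(FPKM + 1) in MEF (2 samples), NanogN70 iPSC and Nanog iPSC (6 samples each) and mES (1 sample), from the transcript table summed by symbol. Each point is 1 sample, triangles mark samples tagged iPSC2 and bars give the mean. Sox2 and Sox15 are high in all 12 iPSC samples, and Sox4 and Sox9 lie below MEF in all 12.

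Of the 12 further Sox genes listed beside the members, 8 were tested in the time course. Between D0 and D12, 7 rose with NanogN70+Oct4 and 4 with Nanog+Oct4, with medians of 1.94 and 0.77 beside 0.34 and 0.19 over all genes tested, of which 24.6% and 12.2% passed in that direction. A listed gene that is low at D0 enters the test only through later cultures where it is high. For such a gene, passing the filter on low values and rising are not separate facts, so the counts of this list are a description. *Sox3* and *Sox1*, the SOXB1 relatives of *Sox2* that mark the early neural plate, came on before it in both combinations. *Sox3* rose from a mean of at most 0.104 FPKM at D0 to 11.3 FPKM with NanogN70+Oct4 and 18.3 FPKM with Nanog+Oct4 at D1. *Sox1* reached a mean of 12.1 and 9.93 FPKM at D3. At D12 between the combinations, 4 of 8 were higher with NanogN70+Oct4, against 13.5% of all genes tested in that direction, *Sox3* by most (1.98) and *Sox8* by least (1.02), with *Sox13* and *Sox21* between them.

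**Figure D5:**
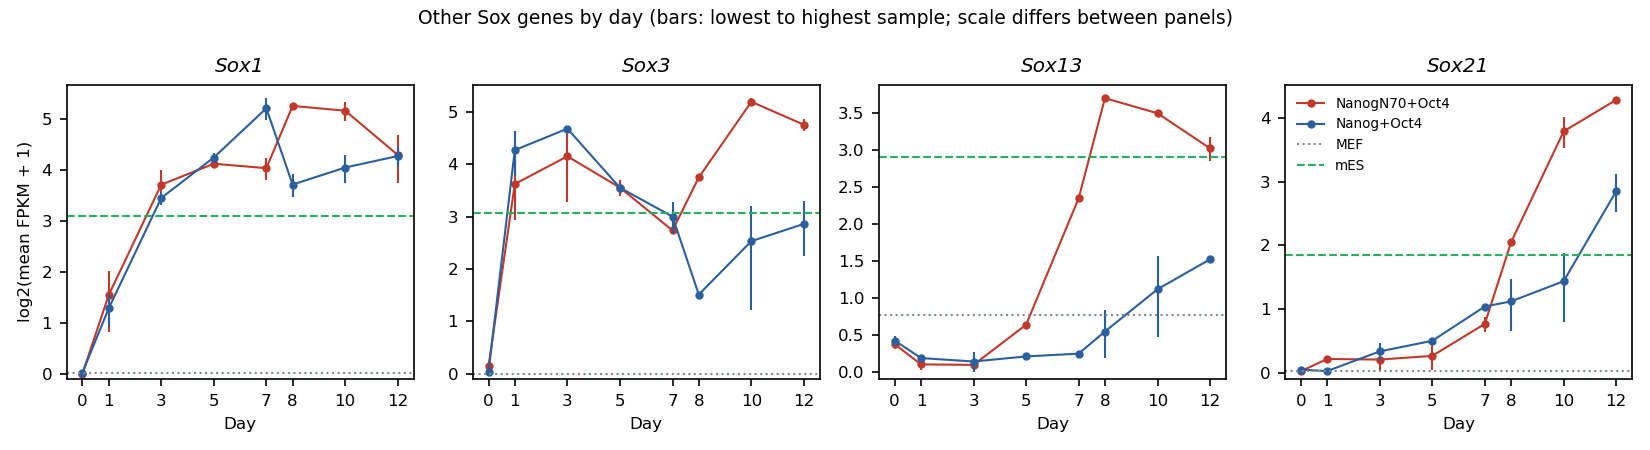
Level of Sox1, Sox3, Sox13 and Sox21, the 4 further Sox genes that rose in both combinations by D12, as log2 of mean FPKM + 1 against the day; vertical bars span the lowest to the highest sample, and horizontal lines give MEF and mES. Sox3 and Sox1 rose within 3 days in both combinations, ahead of Sox2, and Sox13 rose at D7 with NanogN70+Oct4.

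Genes that OCT4 and SOX2 are known to bind together differed between the combinations in the direction of *Sox2*. The list was chosen with earlier results of these data known. A listed gene that is low in MEF and in early cultures enters the test only through later cultures where it is high. For such a gene, passing the filter on low values and being higher are not separate facts. The counts of these genes are therefore a description and no separate check on *Sox2*. Between the combinations, 4 of 8 were higher with NanogN70+Oct4 at D7, against 5.79% of all genes tested in that direction, and 8 of 8 at D8, D10 and D12, against 13%, 15.4% and 13.5%. *Tdgf1*, a co-receptor of Nodal signalling, had the largest difference at D12 (3.94) and *Lefty1*, a Nodal inhibitor, the smallest (1.91). *Tdgf1* was also the most abundant of them in NanogN70+Oct4 cells of D12, at 96.3 FPKM in mean against 408 FPKM in mES. While *Sox2* did not pass against mES by then, 5 of these 8 genes were still lower than in mES, against 5.89% of all genes tested, and 1, *Lefty1*, was higher, against 15.7%.

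Neural genes that SOX2, SOX4 and SOX11 accompany in neural cells rose in both combinations. Between D0 and D12, 7 of 9 tested rose with NanogN70+Oct4 and 6 of 9 with Nanog+Oct4, against 24.6% and 12.2% of all genes tested in that direction, with medians of 3.62 and 2.80 beside 0.34 and 0.19 over all genes. Here too, a gene that is low at D0 enters the test only through later cultures where it is high. Its passing the filter on low values and its rise are then not separate facts, and these counts are a description. *Tubb3*, the neuronal tubulin, had the largest rise with NanogN70+Oct4 (6.03), was the most abundant at 385 FPKM in mean at D12 and stood at 18.2 FPKM in mES, and *Nes*, an intermediate filament of neural progenitors, had the smallest (1.96). *Dcx*, a microtubule protein of young neurons, was listed at 0 in mES and stood at 43.3 FPKM in mean in NanogN70+Oct4 cells of D12. The part of neural cells in the results for *Sox4* and *Sox11* was not tested.

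Of 12 cartilage genes that SOX9 drives together with SOX5 and SOX6, 8 were tested. Between D0 and D12 in NanogN70+Oct4 cells 2 rose, a share near the 24.6% of all genes tested, and 1 fell, with a median of -0.07 beside 0.34 over all genes. *Col9a2* (2.63) rose most and *Cnmd*, a secreted inhibitor of vessel growth, least (1.48), while *Col11a1* fell by 2.83. *Col2a1*, the main cartilage collagen, stood at 66.0 FPKM in mean in MEF, at 4.95 FPKM in NanogN70+Oct4 cells of D12 and at 0.316 FPKM in Nanog+Oct4 cells.

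Among factors that act with *Sox2* in stem cells, *Sall4* and *Esrrb* were higher with NanogN70+Oct4 at D12, by 3.11 and 3.05, and *Pou5f1* was lower (-1.99). *Klf4* (0.47) and *Nanog* (-0.70, adjusted p = 0.00806 in limma but under the fold limit) did not pass. Of all genes tested, 23.4% passed there. Vector and endogenous RNA of *Pou5f1* and *Nanog* are not separate in these values.

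Over the 34 samples of the gene table, the genes with the pattern most like *Sox2* were *Dppa5a* (Pearson r = 0.98), *Tdh* (0.98) and *Cecr2* (0.97), and those most like *Sox15* were *Gtsf1l* (0.99), *Prdm14* (0.99) and *Fgf4* (0.99). *Sox2* and *Sox15* had r = 0.93 with each other. For the somatic members these values were lower. *Syt11* (0.91), *Tdrkh* (0.90) and *Faxc* (0.89) were most like *Sox11*, *Cxxc5* (0.91), *Cables1* (0.90) and *Rabl6* (0.90) most like *Sox12*, and *Dlg4* (0.86), *Mir6944* (0.84) and *Cplx2* (0.82) most like *Sox4*. For *Sox5* they were *Ctnna2* (0.88), *LOC102632302* (0.88) and *Hoxb3* (0.87), for *Sox6* *Arhgap20* (0.88), *Cdon* (0.88) and *Megf6* (0.87), and for *Sox9* *LOC108169181* (0.84), *Armcx4* (0.81) and *Hoxb8* (0.81). *Sox2* had r = 0.31 with *Sox11* and 0.11 with *Sox4*. These values are descriptions, since the samples share days, cultures and depth.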

How the data were processed

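RNA-seq of 46 samples was analysed from a gene table of 34 samples (time course, MEF, mES) and a transcript table of 15 (iPSC, MEF, mES). The authors trimmed reads with Trim Galore 0.6.4, aligned them to mm10 with HISAT2 2.2.1 and deposited FPKM from StringTie 2.2.1. The gene annotation and strand setting are not given in the sources used here. FPKM carry no counts, so no count model was run. Relative depth was read from the smallest steps between values in the gene table, and depth of the transcript table is unknown. Transcripts were summed by symbol.

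Samples were grouped by combination and day from the labels. limma 3.58.1 (R 4.3.3, trend) was fitted to log2(FPKM + 1) of genes that reached 1 FPKM in 2 or more samples (16842 genes in the time course), and p-values were adjusted (Benjamini-Hochberg) over all genes of a fit. The procedure was tested on simulated data. Alternatives were quantile normalization, a pseudocount of 0.1, no filter, rescaling to TPM, no fold limit, fits to the compared groups alone, a replicate block and leaving out each replicate, and, chosen after seeing the data, leaving out mES. The members and gene lists were chosen with earlier results of these data known. All 8 members are named, with the 3 genes most like each by Pearson r and, from each list, the genes with the largest and smallest difference that passed and the most abundant one. Other genes in the text were named after their values were seen. The planned comparison of protein sequences was not run. Figures used matplotlib 3.10.9.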

Additional observations from a re-analysis of the deposited data

Results flagged for a closer look

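The gain from D0 to D12 differed between the combinations for 4 members in limma's interaction test: *Sox2* by 2.74, *Sox15* by 2.87, *Sox9* by 1.84 and *Sox11* by 1.40 in log2(FPKM + 1), all larger with NanogN70+Oct4.

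In the iPSC, 4 of 16 groups of 6 samples held a sample far from the others by Dixon's ratio of its gap to the whole range, where chance gives about 1 in 20. *Sox4* in Nanog iPSC replicate 2 stood at 14.6 FPKM, next to 4.52 FPKM (ratio 0.807). *Sox11* in NanogN70 iPSC replicate 4 stood at 8.51 FPKM, next to 2.51 FPKM (ratio 0.883). *Sox12* in Nanog iPSC replicate 6 stood at 14.9 FPKM, next to 10.9 FPKM (ratio 0.762). *Sox5* in NanogN70 iPSC replicate 9 stood at 0.0077 FPKM with the other samples listed at 0 (ratio 1). Any value above 0 would give that ratio there, so this flag, counted among the 4, was set by the floor of the table.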

How the results depend on the processing

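Of 82 differences of single members that passed, 854 values under the alternatives gave 821 that still passed in the same direction, 33 that no longer passed and 0 of opposite sign. The 821 include each of these differences without the fold limit, a setting under which a difference that passed cannot fail. A further 38 differences passed only under an alternative. The 1 of these to turn its sign was *Sox2* from D0 to D8 with Nanog+Oct4, at -0.20 without Nanog D8 replicate 2 and 1.29 without replicate 1. Of 125 differences that passed nowhere, 44 changed sign. The number of members that passed between the combinations moved at D5 from 0 to 1 without the fold limit and in the fit to the compared groups alone, and at D7 from 1 to 2 with a pseudocount of 0.1 or TPM and to 3 without the fold limit. At D12 it ranged from 2 to 4 when 1 replicate was left out, 2 being without NanogN70 D12 replicate 2. For the mean of D1 to D7 it was 2 with a pseudocount of 0.1 and 4 without the fold limit, and for D12 against D0 with Nanog+Oct4 it was 7 in place of 3 without the fold limit. The cause of these shifts was not tested, apart from the fold limit, whose removal admits smaller differences.

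Counts over all genes moved further. Between the combinations at D7, 1758 genes passed, against 2716 with a pseudocount of 0.1 and 4779 without the fold limit, and in fits to the compared groups alone 0 passed at D0, D1 and D3, in place of 128, 224 and 623. The median of all genes from D0 to D12 was 0.34 with NanogN70+Oct4 and 0.19 with Nanog+Oct4, and 0.01 and -0.02 after quantile normalization, which took the share of higher genes among those that passed from 70.7% to 51.0% and from 75.5% to 57.7%.

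Replicate numbers showed no steady pairing over the days: the correlation of same-numbered deviations ran from -0.0647 at D3 to 0.395 at D7, and was 0.227 at D0. With the replicate number as a block, 50 of 50 refitted member differences still passed, 4 members passed between the combinations at D12, and 3961 genes did in place of 3946. From D8 on, the greater depth of the Nanog+Oct4 libraries cannot be told apart from the combination.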
